A study of Mus musculus with 12 samples.

Results

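Natriuretic peptides and genes of mechanical stress were followed in heart muscle of mice after a sham operation or a myocardial infarction (MI), each with vehicle or weekly prednisone, a synthetic glucocorticoid. The set held 10 genes, *Nppa*, *Nppb*, *Acta1*, *Ankrd1*, *Xirp2*, *Fhl1*, *Csrp3*, *Tnni1*, *Corin* and *Npr3*, picked by symbol out of 33641 symbols in a table of transcript abundance whose rows were summed to genes. TPM, the unit of that table, is the share of a library taken by a transcript after allowing for its length, scaled to 1000000 per library. All 12 mice were male C57BL/6 wild type, with 3 mice in each of 4 groups: sham with vehicle, sham with prednisone, MI with vehicle, and MI with prednisone. Per the labels, the mice were about 10 weeks old in the treatment protocol and about 16 weeks old in the sample description. Prednisone was given intraperitoneally at 1 mg/kg once a week at lights-on (ZT 0) for 6 weeks, beginning 2 weeks after surgery, and the hearts of all groups were taken 24 hours after the last injection. The labels give the tissue as myocardium and do not say which chamber, or which distance from the infarct, was sampled, nor how large the infarcts were.

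Atrial natriuretic peptide (encoded by *Nppa*) and B-type natriuretic peptide (encoded by *Nppb*) are hormones that heart muscle cells release when they are stretched. The protease corin cleaves the atrial prohormone, the receptor guanylyl cyclases *Npr1* and *Npr2* convert peptide binding into cyclic GMP, and *Npr3* encodes the receptor that removes the peptides from the circulation. In adult mice *Nppa* is made mainly in the atria, and its return in the ventricle, together with skeletal alpha-actin (*Acta1*) and the muscle ankyrin repeat protein *Ankrd1*, is a classical mark of a loaded or injured ventricle. *Xirp2*, *Fhl1* and *Csrp3* encode proteins of the Z-disc, the intercalated disc or the titin filament, where muscle cells sense tension, and *Tnni1* encodes the troponin I of the fetal heart.

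*Nppb* and *Nppa* lie in tandem on the plus strand of chromosome 4 (GRCm38, 147985788 to 147987205 and 148000722 to 148002079), with 13516 bases between the end of the former and the start of the latter. *Acta1* is on chromosome 8 (123891769 to 123894751, minus strand) and *Ankrd1* on chromosome 19 (36111961 to 36120099, minus strand). The RefSeq promoter windows of these 4 genes are shown because the 4 genes rose together after MI, and a window inside *Fhl1* is shown because it covers the start of the *Fhl1* transcript that changed with MI. Each window runs from 250 bases before the annotated start to 50 bases from it, 5′ to 3′ on the strand of the gene, in build GRCm38.p6. Capitals mark matches to 5 motifs: CATTCC on either strand (the MCAT element of TEAD factors), GATAA on either strand (GATA factors), TATAAA on the gene's strand (the TATA box), AGAACA on either strand (the half-site of the glucocorticoid receptor) and the CArG box of serum response factor on either strand.
Nppb, chr4:147985650-147985949, plus strand: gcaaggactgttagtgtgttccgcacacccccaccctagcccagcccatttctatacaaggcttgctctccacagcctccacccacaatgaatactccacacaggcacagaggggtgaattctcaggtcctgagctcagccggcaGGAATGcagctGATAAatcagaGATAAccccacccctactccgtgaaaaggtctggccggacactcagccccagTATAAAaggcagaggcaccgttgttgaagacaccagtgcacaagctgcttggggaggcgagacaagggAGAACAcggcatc
Nppa, chr4:148000472-148000771, plus strand: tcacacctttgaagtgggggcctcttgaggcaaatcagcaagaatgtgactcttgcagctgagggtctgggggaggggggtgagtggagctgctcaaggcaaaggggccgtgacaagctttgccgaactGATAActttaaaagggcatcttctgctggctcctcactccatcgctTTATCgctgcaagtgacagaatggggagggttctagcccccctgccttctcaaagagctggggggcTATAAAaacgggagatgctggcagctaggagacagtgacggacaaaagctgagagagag
Acta1, chr8:123894726-123895025, minus strand: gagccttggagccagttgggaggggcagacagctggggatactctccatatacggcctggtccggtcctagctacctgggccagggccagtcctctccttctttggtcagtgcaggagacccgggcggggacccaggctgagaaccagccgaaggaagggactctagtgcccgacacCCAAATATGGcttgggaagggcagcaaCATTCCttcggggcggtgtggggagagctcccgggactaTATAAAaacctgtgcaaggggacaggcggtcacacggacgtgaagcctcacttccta
Ankrd1, chr19:36119795-36120094, minus strand: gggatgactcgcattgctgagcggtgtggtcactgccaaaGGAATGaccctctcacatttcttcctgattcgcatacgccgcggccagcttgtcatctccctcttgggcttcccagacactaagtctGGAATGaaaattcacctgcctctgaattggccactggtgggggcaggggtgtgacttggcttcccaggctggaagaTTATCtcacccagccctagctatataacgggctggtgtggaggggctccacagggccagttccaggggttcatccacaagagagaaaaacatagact
Fhl1, chrX:56779433-56779732, plus strand: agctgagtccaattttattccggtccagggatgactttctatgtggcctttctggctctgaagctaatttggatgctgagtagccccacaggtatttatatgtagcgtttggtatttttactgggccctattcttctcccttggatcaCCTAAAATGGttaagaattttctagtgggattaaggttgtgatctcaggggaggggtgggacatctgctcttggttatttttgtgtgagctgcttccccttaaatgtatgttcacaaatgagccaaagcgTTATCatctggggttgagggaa

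The *Nppb* window held an MCAT element 105 bases before the start, GATA motifs 94 and 83 bases before it, a TATA box 31 bases before it and a glucocorticoid half-site at position 38, counting the start as 1. The *Nppa* window held GATA motifs 121 and 75 bases before the start and a TATA box 9 bases before it. The *Acta1* window held a CArG box 73 bases, an MCAT element 46 bases and a TATA box 7 bases before the start, and the *Ankrd1* window held MCAT elements 210 and 123 bases and a GATA motif 47 bases before it. The *Fhl1* window held a CArG box 102 bases before its start and a GATA motif at position 29. No 2 matches overlapped. Of the member windows not printed, AGAACA was also held by those of *Npr3* (31 bases before the start) and *Tnni1* (49 or 139, by window). A *Csrp3* window held it 181 bases before the start. Among 32851 windows of the same length in the RefSeq table, 14.7% held the MCAT element, 25.4% GATAA, 8.32% TATAAA, 19% AGAACA and 1.63% the CArG box. A match describes the letters of the window and is not evidence of binding.

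As shares of a library, TPM values move with the rest of the library, and the following facts bear on every value below. The mitochondrially encoded share ran from 21.6% to 42.0% of TPM, and the number of genes at 1 TPM or more ran from 11690 to 14307, the latter in MI vehicle replicate 3. Of 13158 genes tested, the median log2 change was 0.39 for MI in vehicle-treated mice, -0.06 for MI in prednisone-treated mice, -0.41 for prednisone in infarcted hearts and 0.07 for prednisone in sham hearts, so each change is read against that shift. The shift itself moved with 1 library: without MI vehicle replicate 3 it was 0.19 for MI under vehicle and -0.22 for prednisone in infarcted hearts. Median-ratio rescaling, which removes it, and a correction for transcript length are named below where they end a call. The sum of 6 cardiomyocyte markers was high in every library (20924 to 34966 TPM) but lowest in the MI vehicle hearts, without overlap. Their sum was 20924 to 25958 TPM there and 29257 to 30702 TPM in sham vehicle hearts. It was 30126 to 34966 TPM in sham prednisone and 30926 to 34009 TPM in MI prednisone hearts. Single markers did not all follow the sum, since *Actc1* averaged 5222 TPM in MI vehicle and 4474 TPM in MI prednisone hearts. Of the 6, 2 were called lower with MI under vehicle and 2 under prednisone, against 0.904% and 14.1% of all genes. With prednisone in MI 3 were called higher, against 2.5% of all genes. Skeletal muscle markers were near 0 (8 genes, summed 1.40 to 15.1 TPM, with *Myf6* listed at 0 in 3 of the 4 groups). Libraries are whole tissue, so fewer cells of a type and less RNA per cell cannot be told apart.

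**Figure D1:**
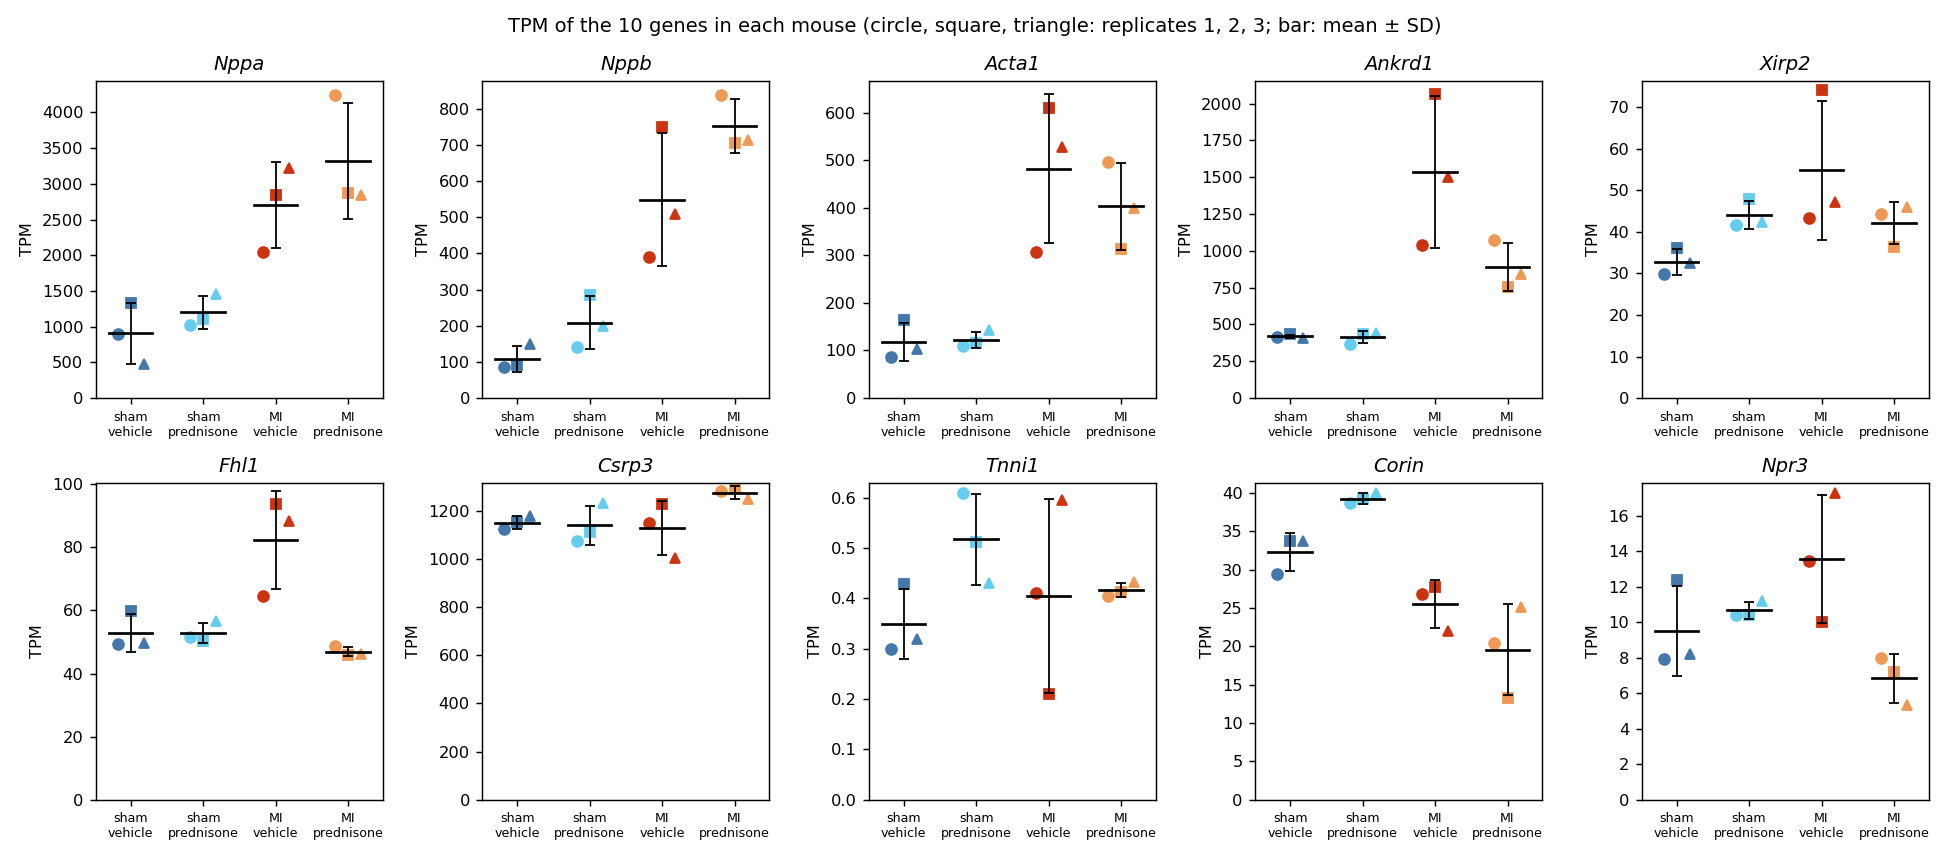
TPM of the 10 genes (vertical axes, from 0) in each of the 12 mice by group, with points for mice and the bar for mean ± SD of 3 mice. *Nppa*, *Nppb*, *Acta1* and *Ankrd1* lie higher in every infarcted heart than in every sham heart of the same treatment, *Fhl1* is high in MI vehicle alone (64.6 to 93.8 TPM), and *Tnni1* stays between 0.21 and 0.61 TPM.

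The first question was what infarction did in vehicle-treated mice. Of the 10 genes 9 passed the filter of 1 TPM in at least 3 libraries, and 6 of those 9 rose: the hormones *Nppa* and *Nppb*, the actin *Acta1*, and the mechanical-stress genes *Ankrd1*, *Xirp2* and *Fhl1*. None fell. At this threshold, a limma adjusted p under 0.05, 16% of all genes passed, 15.1% higher and 0.904% lower. That background, 2100 genes, was not stable: it was 490 genes higher and 489 lower after median-ratio rescaling, 168 in all without sham vehicle replicate 1, 120 without sham vehicle replicate 3, 2 with only these 6 libraries fitted and 5631 without MI vehicle replicate 1. The median of the 9 tested members was 0.69, against 0.39 for all genes. Groups did not overlap in 7 of the 9 (6 higher and 1, *Corin*, lower), against 45% of all genes.

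*Nppb* had the largest rise of the 6. It was at 85.2, 91.1 and 150.1 TPM in the sham hearts and at 389.1, 749.2 and 509.6 TPM in the infarcted hearts. The lowest infarcted heart stood above the highest sham heart by more than the whole range of the sham group. The mean went from 108.8 ± 35.9 to 549.3 ± 183 TPM (SD, n = 3 each). On the log2 scale this was a rise of 2.32 (SE 0.30, limma adjusted p = 0.00505), which is 1.93 above the median gene.

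*Nppa*, the most abundant member in infarcted hearts, was at 900.8, 1333 and 478.2 TPM in the sham and 2050, 2840 and 3228 TPM in the MI hearts. The groups did not overlap, although the sham hearts were themselves far apart. Its log2 change was 1.68 (SE 0.33, limma adjusted p = 0.0136). It was not called without sham vehicle replicate 1 (1.73, limma adjusted p = 0.0545) or without the lowest heart, sham vehicle replicate 3 (1.28, limma adjusted p = 0.0538). Together the 2 peptides took between 0.0628% and 0.142% of all TPM in sham vehicle hearts and between 0.244% and 0.374% in MI vehicle hearts.

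*Acta1*, the actin isoform of skeletal muscle and of the developing heart, was at 86.9, 163.1 and 103.0 TPM in sham and at 307.3, 609.8 and 528.4 TPM in MI hearts, again without overlap. Its log2 change was 2.02 (SE 0.28, limma adjusted p = 0.00526). *Ankrd1*, which binds titin and moves to the nucleus under strain, was at 416.3, 432.4 and 408.1 TPM in sham and at 1039, 2068 and 1500 TPM in MI hearts. The sham hearts were nearly level, whereas the infarcted hearts were far apart, all of them above the sham hearts. The log2 change was 1.82 (SE 0.21, limma adjusted p = 0.005).

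*Xirp2* and *Fhl1* rose less. *Xirp2*, an actin-binding protein of the intercalated disc, was at 29.9, 36.1 and 32.5 TPM in sham and 43.3, 74.1 and 47.2 TPM in MI hearts (log2 change 0.69, SE 0.18, limma adjusted p = 0.0325). One heart, MI vehicle replicate 2, stood well above the others, and without it the change was 0.45 (limma adjusted p = 0.0538). *Fhl1*, a LIM-domain protein of the titin filament, was at 49.3, 59.9 and 49.6 TPM in sham and 64.6, 93.8 and 88.5 TPM in MI hearts (log2 change 0.61, SE 0.14, limma adjusted p = 0.0204). Both lay 0.30 or less above the median gene, and neither was called after median-ratio rescaling (log2 changes 0.26 and 0.18) or after the length correction (0.41 and 0.18).

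The remaining 3 tested members were not called. *Corin* was at 29.4, 33.7 and 33.8 TPM in sham and 26.9, 27.7 and 22.0 TPM in MI hearts (log2 change -0.33, SE 0.19, limma adjusted p = 0.183). *Npr3* was at 7.92, 12.4 and 8.19 against 13.4, 10.0 and 17.3 TPM, with overlap (0.47, SE 0.21, limma adjusted p = 0.12). *Csrp3*, the Z-disc protein MLP, stood between 1006 and 1229 TPM in all 6 hearts (-0.03, 95% interval -0.24 to 0.18). None of the 6 calls held when only these 6 libraries were fitted, although the changes were of the same size, and 3 held without sham vehicle replicate 1 or without replicate 3.

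**Figure D2:**
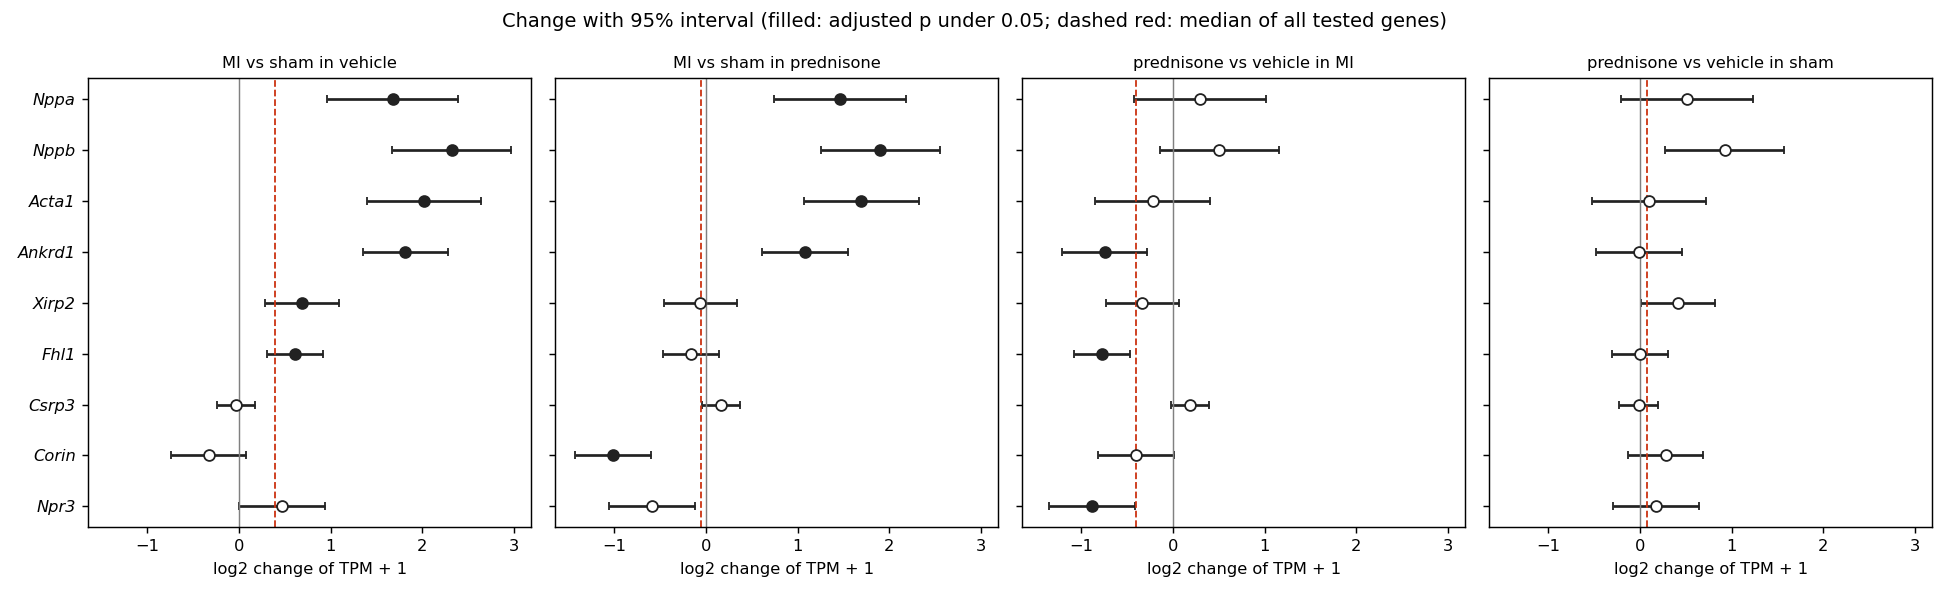
Log2 change of TPM + 1 with its 95% interval (horizontal axes) for the 9 tested genes in the 4 comparisons, filled where the adjusted p was under 0.05, with the dashed line at the median of all tested genes. The 4 genes at the top stand right of the dashed line after MI under both treatments, while *Fhl1* and *Npr3* lie right of it in the first panel and left of it in the second, and *Csrp3* the reverse.

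The same question was then asked in prednisone-treated mice. *Nppa*, *Nppb*, *Acta1* and *Ankrd1* rose again, *Corin* fell, and *Xirp2*, *Fhl1*, *Csrp3* and *Npr3* were not called. These were 5 of 9 tested members, 4 higher and 1 lower, where limma called 16.8% of all genes, 2.73% higher and 14.1% lower. The median of the members was 0.16 and that of all genes -0.06. Groups did not overlap in 8 of the 9 members, 5 higher and 3 lower, against 45.2% of all genes.

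*Nppb* was at 142.1, 286.0 and 198.1 TPM in the sham prednisone hearts and at 838.9, 706.0 and 713.4 TPM in the MI prednisone hearts. The infarcted hearts agreed closely with each other, and all stood far above the sham hearts. The log2 change was 1.90 (SE 0.30, limma adjusted p = 0.00245). *Nppa* was at 1029, 1102 and 1464 TPM in sham and 4251, 2870 and 2837 TPM in MI hearts, without overlap (1.46, SE 0.33, limma adjusted p = 0.012). Without the highest heart, MI prednisone replicate 1, its change was 1.27 and it was not called (limma adjusted p = 0.0593), nor was it without sham prednisone replicate 1 (1.36, limma adjusted p = 0.0506).

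*Acta1* was at 109.9, 115.4 and 142.0 TPM in sham and 495.8, 313.2 and 400.3 TPM in MI hearts (1.69, SE 0.28, limma adjusted p = 0.00345). *Ankrd1* was at 369.9, 437.2 and 443.4 TPM in sham and 1073, 755.2 and 841.8 TPM in MI hearts (1.08, SE 0.21, limma adjusted p = 0.00657). Neither gene's groups overlapped. The log2 change of *Ankrd1* was smaller than under vehicle by 0.73, a difference that did not pass the interaction test (SE 0.30, limma adjusted p = 0.0973).

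*Corin*, the protease that activates the atrial peptide, was at 38.7, 39.2 and 40.0 TPM in sham prednisone hearts and 20.5, 13.2 and 25.1 TPM in MI prednisone hearts. Every infarcted heart was lower than every sham heart, and the mean was 0.50 of the sham mean. The log2 change was -1.01 (SE 0.19, limma adjusted p = 0.00532). After the length correction it was -0.68 and not called (limma adjusted p = 0.0838). *Npr3*, the clearance receptor, was at 10.4, 10.4 and 11.2 TPM in sham and 7.95, 7.22 and 5.31 TPM in MI hearts, without overlap but not called (-0.59, SE 0.21, limma adjusted p = 0.084). It was called after median-ratio rescaling (-0.50, limma adjusted p = 0.0429).

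Infarcted hearts were then compared by treatment. The MI vehicle libraries served in this comparison as the reference and in the first one as the infarcted group, so low or high values in them enter both with opposite sign. Of the 9 tested members, *Ankrd1*, *Fhl1* and *Npr3* fell and none rose. Limma called 37.4% of all genes, 2.5% higher and 34.9% lower, so 3 of 9 lower is no more than the share over all genes. After median-ratio rescaling the calls over all genes were balanced, at 1917 higher and 1870 lower, and after the length correction at 1149 and 1009, and none of the 3 members was then called. The median change was -0.34 for the members and -0.41 for all genes. Groups did not overlap in 3 members, against 46.2% of all genes.

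*Fhl1* gave the clearest separation. It was at 64.6, 93.8 and 88.5 TPM with vehicle and at 48.7, 45.8 and 46.3 TPM with prednisone. All 3 prednisone hearts were lower than all 3 vehicle hearts, and lower also than all 6 sham hearts. The log2 change was -0.78 (SE 0.14, limma adjusted p = 0.00247), and -0.37 relative to the median gene. The change was -0.33 under median-ratio rescaling (limma adjusted p = 0.0917) and -0.38 under the length correction (0.0869).

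*Npr3* was at 13.4, 10.0 and 17.3 TPM with vehicle and at 7.95, 7.22 and 5.31 TPM with prednisone, also without overlap (log2 change -0.88, SE 0.21, limma adjusted p = 0.00936). *Ankrd1* went from 1039, 2068 and 1500 TPM to 1073, 755.2 and 841.8 TPM, where the lowest vehicle heart and the highest prednisone heart overlapped (-0.75, SE 0.21, limma adjusted p = 0.019). Median-ratio rescaling ended both calls (*Npr3* -0.46, limma adjusted p = 0.0519, and *Ankrd1* -0.29, limma adjusted p = 0.395), as did the length correction (-0.19 and -0.40). Without MI vehicle replicate 2, the highest heart, the change of *Ankrd1* was -0.50 and was not called (limma adjusted p = 0.0507), and it was not called without MI prednisone replicate 2 (-0.64) or replicate 3 (-0.71).

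The peptide genes were not called in this comparison. *Nppa* averaged 2706 ± 600 TPM with vehicle and 3319 ± 807 TPM with prednisone (log2 change 0.29, 95% interval -0.42 to 1.01), and *Nppb* 549.3 ± 183 and 752.8 ± 74.7 TPM (0.50, 95% interval -0.15 to 1.15). The intervals do not exclude a rise of 1.01 or 1.15 on the log2 scale. Relative to the median gene the changes were 0.70 for *Nppa* and 0.91 for *Nppb*. Over 21 alternatives they reached 0.75 and 0.96, and none gave a call (lowest limma adjusted p 0.0798 and 0.0548). *Acta1* averaged 481.8 ± 157 and 403.1 ± 91.3 TPM (-0.22, SE 0.28, limma adjusted p = 0.548, and 0.24 after median-ratio rescaling). *Csrp3* was at 1149, 1229 and 1006 TPM with vehicle and 1283, 1297 and 1247 TPM with prednisone. Its groups did not overlap, its log2 change of 0.18 was not called (limma adjusted p = 0.148), and among the alternatives run it was called only after median-ratio rescaling, at 0.64 (limma adjusted p = 0.0335).

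In sham hearts prednisone gave no call among the 9 tested members, while limma called 0.114% of all genes, 0.0532% higher and 0.0608% lower. *Nppb* and *Xirp2* had an unadjusted limma p under 0.05, both higher with prednisone. The share of all genes at that unadjusted threshold was not computed, so this is no result about the members. *Nppb* was at 85.2, 91.1 and 150.1 TPM with vehicle and 142.1, 286.0 and 198.1 TPM with prednisone (log2 change 0.92, SE 0.30, limma adjusted p = 1). The ranges overlapped through sham vehicle replicate 3. *Xirp2* was at 29.9, 36.1 and 32.5 TPM against 41.7, 47.9 and 42.5 TPM, without overlap (0.41, SE 0.18, limma adjusted p = 1). Groups did not overlap in 2 members, *Xirp2* and *Corin*, against 18.2% of all genes.

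The difference between the prednisone effects in MI and in sham hearts (the interaction) was called for 2 of 9 members, *Fhl1* and *Npr3*, both negative. Over all genes 21.3% were called, 0.54% positive and 20.7% negative, around a median of -0.48, and after median-ratio rescaling 674 were positive and 649 negative. For *Fhl1* the prednisone effect was 0.00 in sham and -0.78 in infarcted hearts, a difference of -0.78 (SE 0.20, limma adjusted p = 0.021). For *Npr3* it was 0.18 in sham and -0.88 in infarcted hearts, a difference of -1.06 (SE 0.30, limma adjusted p = 0.0324). Neither difference was called after median-ratio rescaling (-0.24 and -0.56) or after the length correction (-0.33 and -0.24), and none of the 9 was called without sham vehicle replicate 1, without sham vehicle replicate 3 or without sham prednisone replicate 3.

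Some readouts compare 2 genes inside each library, where the scale of the library cancels. *Acta1* competes with cardiac alpha-actin (*Actc1*) as the actin of the thin filament, and its share of the 2 was 1.78%, 2.89% and 1.80% in vehicle and 2.06%, 2.12% and 2.42% in prednisone sham hearts. It was 5.69%, 9.61% and 9.86% in vehicle and 10.3%, 7.62% and 7.02% in prednisone MI hearts. Every infarcted heart stood above every sham heart, and the treatments interleaved. The share was 6.17 percentage points higher after MI over both treatments (two-sided exact permutation test within treatment, p = 0.005, the smallest the 400 arrangements allow, 0.03 adjusted over 6 tests, higher in 6 of 6 infarcted hearts). With prednisone it differed by -0.02 percentage points (exact permutation p = 0.98). *Actc1* itself was not called in any of the 4 comparisons, and because these actins are near-identical in their coding sequence, some reads may have been assigned to the wrong one.

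*Nppb* per 100 *Nppa* ran from 6.83 to 31.4 TPM in sham vehicle and from 13.5 to 26.0 TPM in sham prednisone hearts, and from 15.8 to 26.4 TPM and 19.7 to 25.1 TPM in the corresponding infarcted hearts. The log2 ratio was 0.55 higher after MI (exact permutation p = 0.185, 0.555 adjusted), and the sham hearts covered the whole range of the infarcted ones. *Tnni1*, the fetal troponin I, did not reach 1 TPM in any library and was not tested. It stood at 0.21 to 0.61 TPM in all 12 hearts, and its share of *Tnni1* plus the adult *Tnni3* lay between 0.00718% and 0.0242%, with no difference beyond the spread by surgery (exact permutation p = 0.78) or treatment (0.815).

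**Figure D3:**
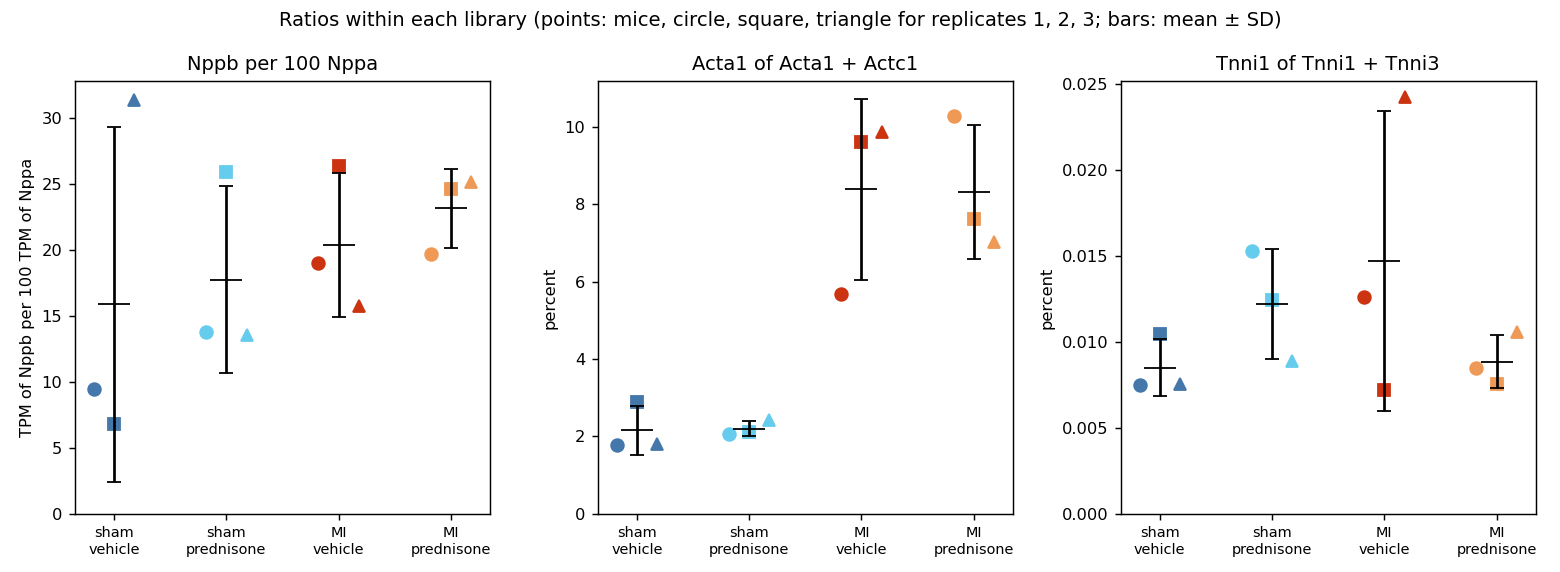
The 3 ratios within each library (vertical axes, from 0), with points for mice and bars for mean ± SD of 3 mice. Only the *Acta1* share separates all infarcted hearts (5.69% to 10.3%) from all sham hearts (1.78% to 2.89%).

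Since *Nppa* is abundant in the atria, its values were set beside atrial markers. *Myl7*, the atrial myosin light chain, was at 522.9, 618.7 and 194.9 TPM in sham vehicle, 507.9, 526.5 and 660.5 TPM in sham prednisone, 408.7, 64.0 and 450.4 TPM in MI vehicle, and 1036, 1015 and 793.5 TPM in MI prednisone hearts. Sham vehicle replicate 3 and MI vehicle replicate 2 were low, and the 3 MI prednisone hearts were the highest of all 12. The 6 atrial markers together summed to 390.6 to 1205 TPM, 994.3 to 1272 TPM, 154.2 to 942.9 TPM and 1555 to 1978 TPM in the same order of groups. Of the 6, prednisone in MI gave 3 calls higher and 1 lower, and none was at 0.

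Per TPM of *Myl7*, *Nppa* took a narrow range in the 6 sham hearts, from 1.72 to 2.45, including sham vehicle replicate 3, whose *Nppa* and *Myl7* were both low. The ratio was 5.01, 44.4 and 7.17 in MI vehicle hearts and 4.10, 2.83 and 3.57 in MI prednisone hearts, so every infarcted heart lay above every sham heart. The highest ratio came from MI vehicle replicate 2, which held 2840 TPM of *Nppa* with 64.0 TPM of *Myl7*. *Nppb* per TPM of *Myl7* was 0.15 to 0.77 in sham hearts and 0.70 to 11.7 in infarcted hearts, where the ranges met through sham vehicle replicate 3. The part that atrial tissue in the sample had in the MI prednisone values of *Nppa* and *Nppb* was not tested.

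**Figure D4:**
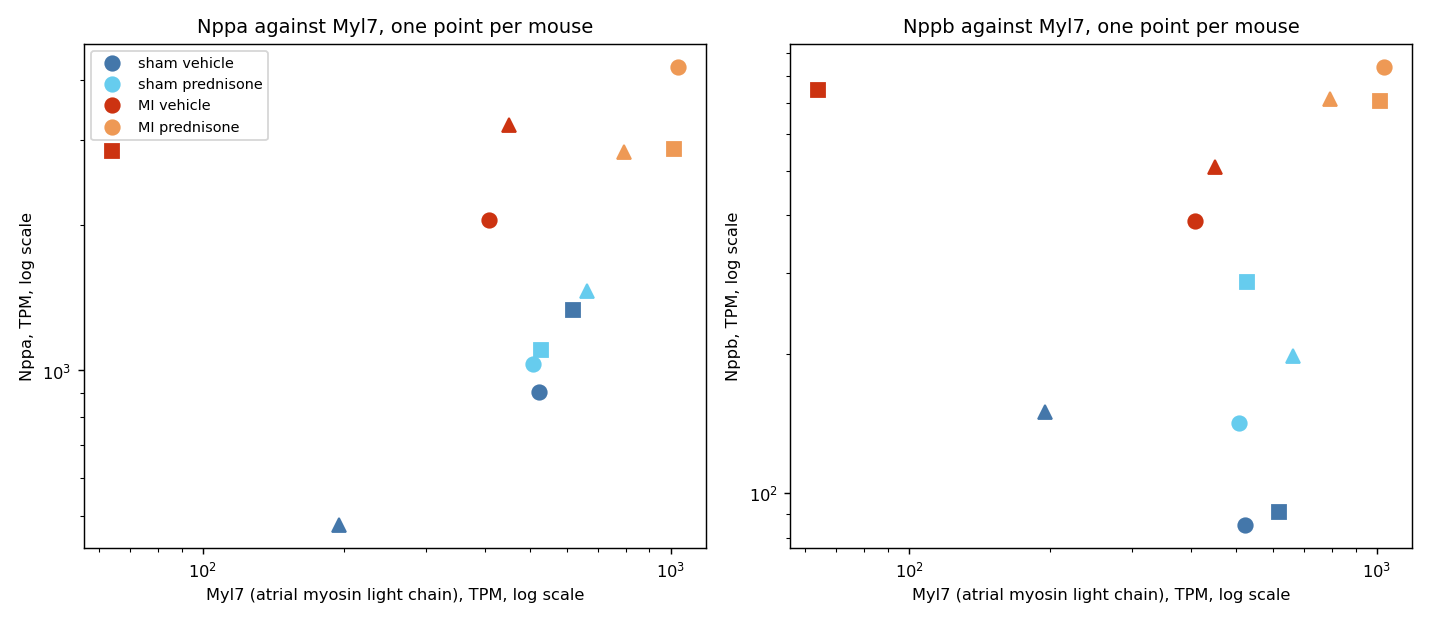
*Nppa* (left) and *Nppb* (right) against *Myl7* in TPM on log axes, with 1 point per mouse. In sham hearts *Nppa* follows *Myl7* at 1.72 to 2.45 TPM per TPM, and the infarcted hearts lie above that line, farthest in MI vehicle replicate 2.

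Markers of cells other than heart muscle cells also moved in comparisons where members were called. *Ankrd1* and *Fhl1* were called higher with MI under vehicle and lower with prednisone in MI. *Xirp2* was called in the former alone and *Npr3* in the latter alone. *Ankrd1* also rose with MI under prednisone. In that comparison 1 of 6 fibroblast and 1 of 6 endothelial markers rose and 2 endothelial markers fell. No macrophage, epicardial or smooth muscle marker was called there, and of all genes 2.73% were called higher and 14.1% lower. With MI under vehicle 6 of 6 fibroblast, 6 of 6 macrophage, 3 of 4 epicardial, 3 of 6 endothelial and 2 of 4 smooth muscle markers rose. With prednisone in MI 5, 4, 4, 3 and 2 of them fell, in this order. Of all genes 15.1% were called higher in the former comparison and 34.9% lower in the latter. The fibroblast sum was 366.7 to 494.5 TPM in sham vehicle, 416.5 to 496.3 TPM in sham prednisone, 859.8 to 1115 TPM in MI vehicle and 316.8 to 552.1 TPM in MI prednisone hearts. The macrophage sum was 224.0 to 330.3, 264.8 to 350.1, 519.7 to 1207 and 255.7 to 481.1 TPM, and the epicardial sum 23.7 to 55.8, 38.2 to 46.2, 74.1 to 118.8 and 17.2 to 39.4 TPM, in the same order. No fibroblast, macrophage or epicardial marker was at 0. The part of all these cells in the changes of the 4 genes was not tested.

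The gene sum of *Fhl1* hid opposite movements of its transcripts. *Fhl1* (chromosome X, 56731787 to 56793346, plus strand) has 10 transcript rows, of which *Fhl1*-201 and *Fhl1*-204 (ENSMUST00000023854.9 and ENSMUST00000114772.8) were the most abundant. They are of nearly equal length, at 2356 and 2283 bases, and encode 280 and 296 residues in the annotation. *Fhl1*-201 begins at 56731787, and *Fhl1*-204 begins at 56779723, within the last bases of the *Fhl1* promoter window printed above.

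*Fhl1*-204 was at 1.85, 8.60 and 5.45 TPM in sham vehicle, 3.21, 4.41 and 5.80 TPM in sham prednisone, 13.9, 34.7 and 27.7 TPM in MI vehicle, and 23.6, 23.8 and 18.3 TPM in MI prednisone hearts. All infarcted hearts stood above all sham hearts, under either treatment. The log2 change with MI was 2.15 under vehicle (SE 0.42, limma adjusted p = 0.0295 over 27769 transcripts) and 2.08 under prednisone (SE 0.42, adjusted p = 0.00539). Transcripts were called at 2.84% in the former comparison and 22.3% in the latter.

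*Fhl1*-201 was at 39.5, 35.8 and 37.9 TPM, 38.5, 38.1 and 38.1 TPM, 33.0, 45.7 and 39.9 TPM, and 21.6, 13.0 and 23.1 TPM in the same order of groups. The 3 MI prednisone hearts were lower than the other 9. In infarcted hearts it fell with prednisone, and decreased by 1.03 on the log2 scale (SE 0.19, limma adjusted p = 0.00269, where 33% of transcripts were called), while *Fhl1*-204 differed by -0.13 (SE 0.42, limma adjusted p = 0.838). In sham hearts neither differed with prednisone (0.02 and -0.06, both limma adjusted p = 1, where 0.054% of transcripts were called). A shorter transcript of 786 bases, *Fhl1*-207 (ENSMUST00000144600.7), also fell with prednisone in MI (log2 change -2.14, SE 0.43, limma adjusted p = 0.00405). It averaged 10.9 ± 2.77 TPM in MI vehicle and 1.72 ± 0.74 TPM in MI prednisone hearts.

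The share of *Fhl1*-204 in the gene's TPM was 9.70% ± 5.42 in sham vehicle, 8.41% ± 2.03 in sham prednisone, 30.0% ± 7.83 in MI vehicle and 46.6% ± 6.51 in MI prednisone hearts (SD, n = 3 each). Every MI prednisone share (39.4% to 52.1%) was above every MI vehicle share (21.6% to 37.0%), and those above every sham share (3.75% to 14.4%). The difference in share was not tested, and because the transcripts have exons in common, their division is an estimate of the quantification program.

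*Corin* (chromosome 5, 72300025 to 72504473, minus strand) showed a similar split. Its main transcripts, *Corin*-202 and *Corin*-201 (ENSMUST00000167460.8 and ENSMUST00000005352.9), have 22 exons each, lengths of 4639 and 4862 bases and 1047 and 1113 residues. *Corin*-201 was at 9.32, 13.3 and 15.4 TPM in sham vehicle, 18.8, 17.7 and 12.9 TPM in sham prednisone, 13.3, 9.96 and 9.93 TPM in MI vehicle, and 3.33, 1.35 and 5.09 TPM in MI prednisone hearts. The 3 MI prednisone hearts were again the lowest. It fell by 2.12 on the log2 scale with MI under prednisone (SE 0.31, limma adjusted p = 0.00106) and by 1.59 with prednisone in MI (SE 0.31, limma adjusted p = 0.00362). *Corin*-202, the more abundant transcript, was at 11.9 to 19.8 TPM in MI prednisone and 11.9 to 17.5 TPM in MI vehicle hearts, and was not called with MI under prednisone (-0.41, limma adjusted p = 0.157).

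**Figure D5:**
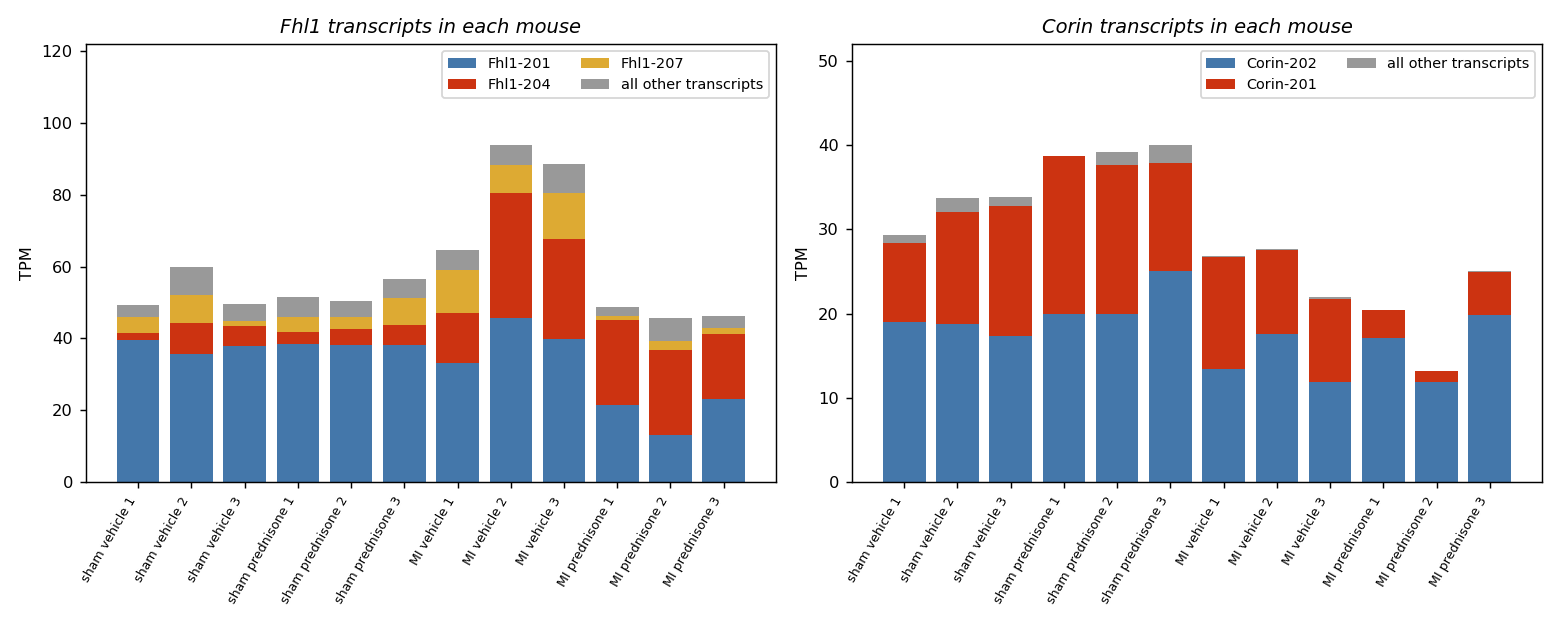
Stacked TPM of the main transcripts of *Fhl1* (left) and *Corin* (right) in each mouse, with the total height giving the gene's TPM. *Fhl1*-204 is enlarged in all infarcted hearts, *Fhl1*-201 is reduced to 13.0 to 23.1 TPM in MI prednisone hearts, and *Corin*-201 is reduced to 1.35 to 5.09 TPM there.

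The wider natriuretic peptide pathway was read from a list of 18 processing enzymes, receptors and cyclic GMP genes, of which 15 were tested and *Nppc*, *Ostn* and *Prkg2* were too low. With MI under vehicle 3 rose and none fell, where 15.1% of all genes were called higher. They were the cyclic GMP effector *Vasp* (log2 change 0.79) and the soluble guanylyl cyclase subunits *Gucy1a3* (0.79) and *Gucy1b3* (0.58). None of the 3 was called after median-ratio rescaling, without sham vehicle replicate 1 or without sham vehicle replicate 3, and *Vasp* was at 0.47 without MI vehicle replicate 3. With MI under prednisone 2 rose, the receptor *Npr2* (0.46, from 14.9 ± 1.62 to 20.8 ± 2.51 TPM) and the cyclic GMP phosphodiesterase *Pde9a* (0.78), and 4 fell, among them the prohormone convertase *Furin* (-0.65), the phosphodiesterase *Pde3a* (-1.16) and the cyclic GMP-dependent kinase *Prkg1* (-0.81). Of all genes 2.73% were called higher and 14.1% lower in this comparison. For *Npr2* the most abundant transcript alone fell by 0.89 on the log2 scale (limma adjusted p = 0.00383), against the gene sum, and that of *Pde9a* was at -0.20 without a call.

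In infarcted hearts 6 of the 15 fell with prednisone and none rose, at a list median of -0.56 against -0.41 for all genes. This share is near the 34.9% of all genes called lower. *Prkg1* was at 2.67, 3.04 and 3.02 TPM with vehicle and 0.72, 0.43 and 0.94 TPM with prednisone (log2 change -1.22, SE 0.16, limma adjusted p = 9.64e-04). It was called after median-ratio rescaling (-0.93) and after the length correction (-0.53). *Pde3a* and the convertase *Pcsk6*, both at -0.67, were called after neither. *Npr1*, the receptor shared by both cardiac peptides, was at 8.22 to 8.54 TPM in sham vehicle, 7.61 to 10.3 TPM in sham prednisone, 8.47 to 17.8 TPM in MI vehicle and 10.5 to 20.2 TPM in MI prednisone hearts, and was not called in any of the 4 comparisons (adjusted p from 0.0715 to 1).

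Of 23 further Z-disc and stretch-sensing genes 22 were tested (*Ankrd2* was too low). With MI under vehicle 4 rose and 2 fell, where 15.1% of all genes were called higher and 0.904% lower. The list median was 0.08, against 0.39 for all genes. The LIM proteins *Csrp2* (1.14) and *Csrp1* (0.99), relatives of the member *Csrp3*, and the Z-disc protein *Synpo2l* (0.89) rose, and titin *Ttn* (-0.67) and its cap *Tcap* (-0.48) fell. The rises were not called after median-ratio rescaling, and the falls were then larger (*Ttn* -1.09 and *Tcap* -0.92). None of these 5 genes was called without sham vehicle replicate 1 or without sham vehicle replicate 3. *Csrp1* stood at 100.2 TPM in MI vehicle replicate 3, against 36.7 and 44.3 TPM in the other MI vehicle hearts, and without that heart it changed by 0.56 (limma adjusted p = 0.0684).

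With MI under prednisone none of the 22 rose and 5 fell, among them the actin-binding *Nexn* (-0.95, from 310.2 ± 18.6 to 164.6 ± 50.2 TPM) and the ubiquitin ligases *Trim55* (-0.69) and *Trim63* (-0.57). The last 2 were not called after median-ratio rescaling. In this comparison 14.1% of all genes were called lower. With prednisone in MI 6 fell, among them *Tcap* (-0.96), *Pdlim5* (-0.84) and *Synpo2l* (-0.57), and 1 rose, *Itgb1bp2* (melusin, a sensor of stretch, 0.36). This is no more than the 34.9% of all genes called lower, and the list median was -0.26 against -0.41 for all genes. The 3 named falls were not called after median-ratio rescaling, and *Synpo2l* was at -0.35 without MI vehicle replicate 2. *Tcap* was at 1825, 1789 and 1874 TPM in sham vehicle and 673.2, 586.6 and 620.9 TPM in sham prednisone hearts, the only call of the 22 in sham hearts (-1.55, SE 0.13, limma adjusted p = 4.7e-04). It was at 1411, 1395 and 1150 TPM in MI vehicle and 671.9, 813.5 and 564.7 TPM in MI prednisone hearts.

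Among 14 sarcomere isoforms and their adult partners, 3 rose and 2 fell with MI under vehicle, against 15.1% and 0.904% of all genes. Beta myosin *Myh7*, the fetal heavy chain, was at 32.6, 38.8 and 37.8 TPM in sham and 168.1, 349.0 and 162.5 TPM in MI hearts (log2 change 2.52, SE 0.27, limma adjusted p = 0.00407), without overlap. *Acta2* (0.72) and *Tpm2* (0.70) rose, without a call after median-ratio rescaling, and the adult *Myh6* (-0.61) and *Tnni3* (-0.52) fell, these 4 without a call when sham vehicle replicate 1 or 3 was left out. Under prednisone *Myh7* (1.81) and *Tpm2* (0.59) rose with MI and *Myh6* (-0.44) fell, the last without a call after median-ratio rescaling. With prednisone in MI, where 2.5% of all genes were called higher and 34.9% lower, 7 rose and 1, *Acta2*, fell (-0.62, not called after median-ratio rescaling). The largest rises were the atrial light chains *Myl7* (2.04) and *Myl4* (1.98) and the adult troponin I *Tnni3* (0.73). Without MI vehicle replicate 2, where both light chains were low, *Myl7* changed by 1.13 (limma adjusted p = 0.043) and *Myl4* by 1.07 (limma adjusted p = 0.0501), and neither was called when any one of the 3 MI prednisone hearts was left out.

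The 14 genes of mechanical and calcineurin signalling had 7 rises and no fall with MI under vehicle, where 15.1% of all genes were called higher. The stress cytokine *Gdf15* (2.59), connective tissue growth factor *Ctgf* (2.11), which is a target of YAP and TEAD, and the calcineurin target *Rcan1* (1.21) rose most. *Rcan1* was not called after median-ratio rescaling (0.78, limma adjusted p = 0.0549). Under prednisone *Gdf15* (1.97), *Ctgf* (1.24) and *Rcan1* (0.80) rose, while the transcriptional regulators *Myocd* (-1.70), *Tead1* (-1.48) and *Yap1* (-0.66) were among 4 that fell. The share of all genes called lower there was 14.1%. *Tead1*, which encodes a TEAD factor, was at 25.1, 32.1 and 25.5 TPM in sham prednisone and 22.8, 31.8 and 22.7 TPM in MI vehicle hearts. It was at 8.29, 6.54 and 14.0 TPM in MI prednisone hearts. Every MI prednisone heart was below the other 9, in which *Tead1* did not go under 18.4 TPM. In infarcted hearts 6 of the 14 fell with prednisone, *Tead1* by 1.38, *Myocd* by 1.34 and *Nfatc3* by 1.27 on the log2 scale. Of all genes 34.9% were called lower there, and the list median was -0.68 against -0.41. *Nfatc3* stood at 26.2 TPM in 1 heart, MI vehicle replicate 3, against 5.87 and 6.09 TPM in the other MI vehicle hearts, and without that heart it changed by -0.62.

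Genes next to *Nppb* and *Nppa* on chromosome 4 were mostly not called. None of 7 tested neighbours was called with MI under vehicle, where both peptide genes rose (*Draxin* was too low). Of all genes 16% were called there, and 7 genes are too few to be set apart from that share. Under prednisone *Miip* rose (0.89) and the mitofusin *Mfn2* fell (-0.80), and with prednisone in MI *Mfn2* (-0.62) and *Agtrap* (-0.57) fell, neither after median-ratio rescaling. Of all genes 2.73% were called higher and 14.1% lower with MI under prednisone, and 34.9% lower with prednisone in MI.

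Some calls of the listed genes also rested on single mice. With MI under prednisone *Furin*, *Npr2*, *Pde9a*, *Trim55*, *Trim63*, *Myh6*, *Tpm2*, *Ctgf* and *Miip* were not called without MI prednisone replicate 1, nor without replicate 2, and *Rcan1* was not called without replicate 1. In infarcted hearts the effect of prednisone on *Synpo2l* and *Agtrap* was not called when either of these 2 mice was left out, that on *Itgb1bp2* and *Acta2* without replicate 2, and that on *Nfatc3* when any one of the 3 was left out.

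For each tested member the 2 genes of most similar pattern, by Pearson's r of log2 values over the 12 libraries among genes averaging at least 5 TPM, are given as a description, since the libraries share surgery, treatment and composition. For *Nppa* they were *Gpx3* (0.97) and *Nat10* (0.96), for *Nppb* *Tnfrsf12a* (0.98) and *Rcan1* (0.96), and for *Acta1* *Postn* (0.97) and *Gdf15* (0.96). For *Ankrd1* they were *Sparc* (0.99) and *Gja4* (0.98), for *Xirp2* *Col4a1* (0.92) and *Lmcd1* (0.90), and for *Fhl1* *Lgmn* (0.98) and *F2r* (0.98). For *Csrp3* they were *Myoz2* (0.93) and *Ptges3l* (0.92), for *Corin* *P2ry1* (0.98) and *Jph2* (0.98), and for *Npr3* *Sel1l* (0.97) and *Gpm6a* (0.95).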

How the data were processed

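RNA of heart muscle from 12 mice (4 groups of 3, taken from the sample titles) was measured by stranded mRNA sequencing, per the labels' protocols. The authors deposited 1 table of TPM values for 105129 transcript rows, each with an Ensembl transcript identifier and a gene symbol. The submitters' processing notes name Trimmomatic, HISAT2 and kallisto and build mm10, without versions, and the annotation release is not given in the sources used here. TPM carries no read depth, so no counting error could be given, and precision rests on the spread between 3 mice. Values are shares of a library, and reads of near-identical genes, such as the actins, or of genes on opposite strands can be assigned to the wrong one. *Nppa*, *Acta1*, *Xirp2*, *Corin* and *Npr3* overlap a gene on the opposite strand, and use of the strand in the quantification is not given.

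Transcript rows of one symbol were summed, and the 13158 symbols that reached 1 TPM in 3 or more libraries were fitted as log2(TPM + 1) with limma 3.58.1 in R 4.3.3 (4 group means, 12 libraries, intensity trend) and Benjamini-Hochberg adjustment over all genes within each of 5 comparisons, called at an adjusted p under 0.05. Fold changes on this scale understate those of low genes. For 3 against 3 mice an exact permutation test cannot go below 0.1, so genes were tested with limma only. The 3 ratios were tested by exact permutation of mice within the other factor, adjusted over 6 tests. Transcripts (27769) were fitted in the same way, and the *Fhl1* and *Corin* transcripts were singled out after their values were seen.

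All members and lists were chosen with earlier results of these data known, and 1 gene of the Z-disc list is not reported here. From each list up to 3 called genes of largest rise and 3 of largest fall per comparison could be named, plus the 2 genes most like each member. Coordinates, lengths and transcript names are from GENCODE M21 (GRCm38), matched on identifiers without their version for 98.6% of rows, and promoters from RefSeq (GRCm38.p6), matched by symbol for 10 of 10 members (13 windows). The fit was tested on simulated data. Alternatives were median-ratio rescaling, no filter, a pseudocount of 0.1, no trend, a replicate block, only the compared groups, each mouse left out, the most abundant transcript, and a length correction (loess of deviation on log10 length, span 0.5) alone or with the block.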

Additional observations from a re-analysis of the deposited data

Results flagged for a closer look

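The prednisone effect differed between infarcted and sham hearts by the limma interaction test (adjusted p under 0.05 over all genes) for 2 of 9 members and 17 genes of the lists. The share of all genes called was 21.3%, 0.54% positive and 20.7% negative, and 2 of 9 is near it. By list, 5 of 15 tested natriuretic and cyclic GMP genes and 6 of 14 signalling genes were called, all negative. Of 22 Z-disc genes 3 were negative and 1 positive. Of 14 sarcomere genes 1 was positive, and of 7 neighbours 1 was negative. The 2 members and the 13 list genes named by the rule for named genes follow. The log2 difference, MI minus sham, is given for each of these beside the median of -0.48 over all genes. Among the members it was -0.78 for *Fhl1* and -1.06 for *Npr3*, the clearance receptor. In the natriuretic and cyclic GMP list it was -0.83 for *Furin*, -0.86 for *Pcsk6*, -0.82 for *Gucy1a3*, -0.95 for *Pde3a* and -1.05 for *Prkg1*. Among the Z-disc genes it was -1.0 for *Nexn* and -0.88 for *Pdlim5*, and it was positive for *Tcap* (0.59). In the signalling list it was -1.82 for *Myocd*, -1.79 for *Tead1* and -1.09 for *Yap1*. It was 0.67 for *Tnni3*, the adult troponin I, and -0.72 for *Mfn2*, a neighbour of the peptide genes. For *Tcap* the positive difference arose between 2 lower values, since the gene was lower with prednisone in sham hearts (-1.55) and in infarcted hearts (-0.96).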

How the results depend on the processing

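Calls depended on the processing more than directions did. With MI under vehicle the 6 calls became 0 when only the compared groups were fitted, 0 with the length correction and replicate block together, and 3 to 6 with 1 mouse left out (3 without sham vehicle replicate 1 or 3). With MI under prednisone the 5 became 2 with the correction and block, and 4 to 6 with 1 mouse left out. With prednisone in MI there were 3 calls, none of which held after median-ratio rescaling (the 1 call then was *Csrp3*, higher), and the 3 became 1 with only the compared groups (*Fhl1*), 0 after the length correction and 0 with the block added, and 2 to 3 with 1 mouse left out. The 2 interaction calls became 0 after rescaling, 1 without the filter, 1 with the replicate block, 0 after the length correction, 0 with the block added, and 0 to 4 with 1 mouse left out (4 without MI vehicle replicate 1, 3 without MI vehicle replicate 3). The cause was not tested. The replicate block changed no other count of member calls. Deviations of same-numbered libraries from their group means correlated at -0.58 to 0.14 over the 4 comparisons. With 3 libraries a group, single libraries weigh on these values, so they cannot show whether replicate numbers pair the mice.

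Of the 12 ratio reversals, all belonged to differences that were not called. The *Acta1* share after MI ranged from 5.68 to 6.84 percentage points with 1 mouse left out, and its adjusted p was 0.06 without any one sham vehicle mouse. The *Acta1* share with prednisone ranged from -0.69 to 0.35 percentage points with 1 mouse left out and was 0.0055 for the most abundant transcript. The *Tnni1* share after MI ranged from -9.8e-04 to 0.0033 and was -0.0032 for the most abundant transcript, and with prednisone it ranged from -0.0029 to 0.0013 and was 2.85e-04.

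Of 45 sign changes of single genes, 1 was called, the most abundant *Npr2* transcript with MI under prednisone (-0.89, against 0.46 for the gene), and that of *Pde9a* was at -0.20. After median-ratio rescaling the change of sign was in *Xirp2* with MI under prednisone (0.041), in *Acta1* (0.24), *Xirp2* (0.11) and *Corin* (0.035) with prednisone in MI, in *Fhl1* with prednisone in sham (-0.087), and in the interactions of *Nppa* (0.33), *Nppb* (0.13) and *Acta1* (0.23). After the length correction, with or without the block, it was in *Xirp2* (0.49) and *Csrp3* (-0.088) with MI under prednisone, in *Acta1* (0.042), *Xirp2* (0.36), *Corin* (0.24), *Pde3a* (0.028), *Synpo2l* (0.029) and *Agtrap* (0.012) with prednisone in MI, in *Fhl1* with prednisone in sham (-0.053), and in the interactions of *Xirp2* (0.081) and *Corin* (0.063). The most abundant *Corin* transcript was at 0.17 with prednisone in MI. With 1 mouse left out, values on both sides of 0 were reached by *Csrp3* with MI under vehicle (-0.098 to 0.047), *Xirp2* with MI under prednisone (-0.13 to 0.037), *Acta1* (-0.090 to 0.36), *Ankrd1* (-0.059 to 0.072), *Fhl1* (-0.048 to 0.092) and *Csrp3* (-0.072 to 0.025) with prednisone in sham, and the interaction of *Nppa* (-0.56 to 0.18).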
